A study of Mus musculus with 8 samples.

Results

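The genes for integrin and laminin subunits were examined in tibialis anterior (TA) muscle of 6 mo old *mdx5cv* and WT mice. They were taken by symbol from the table of all genes, and comprised 18 integrin alpha subunits (*Itga* followed by a number or by d, e, l, m, v, x or 2b), 8 integrin beta subunits (*Itgb1* to *Itgb8*) and 11 laminin chains (*Lama1* to *Lama5*, *Lamb1* to *Lamb3* and gamma chains such as *Lamc1* and *Lamc3*). These are 37 of the 55401 genes in the table. The 4 *mdx5cv* mice carry a mutation in *Dmd*, the gene for dystrophin, in every cell and serve as a mouse model of Duchenne muscular dystrophy (DMD). The 4 WT mice are wild type at *Dmd*, both groups are of the C57/Bl6 strain, none was treated, and the methods of the study state that male mice were used unless noted otherwise. The labels give a replicate number and no animal, so p-values measure the spread between these samples, part of which may be technical.

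An integrin is a pair of 1 alpha and 1 beta subunit that spans the cell membrane and ties proteins outside the cell to the actin cytoskeleton within. A laminin is a trimer of 1 alpha, 1 beta and 1 gamma chain and is the main scaffold of the basement membrane around each muscle fiber. In mature muscle the trimers built on the *Lama2* chain are held at the fiber surface by the dystroglycan complex, to which dystrophin belongs, and by the integrin of *Itga7* and *Itgb1*. Loss of *LAMA2* or of *ITGA7* function in people causes congenital muscle disease.

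The libraries were made from total RNA of whole muscle with a stranded kit. Depth ranged from 13175524 to 14921057 reads per muscle, and testing was limited to the 13677 genes whose normalized counts averaged 10 or more. In such bulk samples, a change in the number of cells of a type and a change in RNA per cell cannot be told apart. *Dmd* itself was at 6954 ± 857 normalized counts in WT and 3964 ± 388 in *mdx5cv* muscle (SD, n = 4). The 5 markers of mature fast fibers, the main cells of the TA, summed to between 826296 and 1007700 normalized counts in WT. In *mdx5cv* they summed to between 592292 and 896132, lowest in replicate 4. When muscles were scaled to equal totals, the median log2 fold change over all tested genes was 0.36, where the deposited size factors gave 0.00, so small differences are stated relative to those factors.

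Of the 37 genes, 34 passed the filter and were tested with limma. At an adjusted p under 0.05, 15 were higher in *mdx5cv* muscle, 44.1% of those tested against 20.9% of all genes tested, and 6 were lower, 17.6% against 20.1%. Calls in either direction took 40.9% of all genes tested. When the log2 fold change also had to reach 1 in either direction, 6 were higher, 17.6% against 10.3% of all genes, and 2 were lower, 5.88% against 3.27%. The 4 values of each group did not overlap for 13 genes that were higher, 38.2% against 20.3% of all genes, and for 7 that were lower, 20.6% against 19.8%. Their median log2 fold change was 0.41, against 0.00 over all genes. Of the tested genes, several, among them *Itga2b*, *Itgal*, *Itgam*, *Itgax* and *Lamc3*, passed the filter only through the group in which they were more abundant, so these shares and the median are descriptions and no support for a rise of the family. Under equal totals these 34 genes gave 18 higher and 3 lower, and over all genes the share of higher calls went from 51.0% to 86.9%. The plot of fold changes shows that the leukocyte subunits lie far from the rest.

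**Figure D1:**
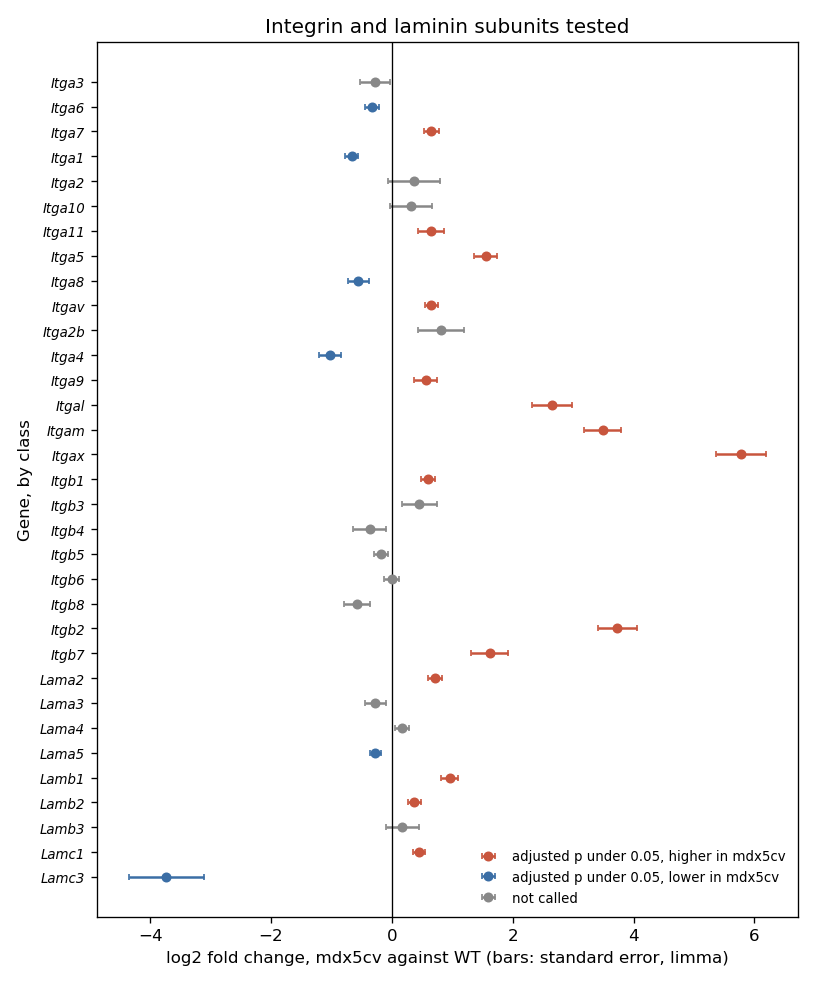
The x axis is the log2 fold change of *mdx5cv* against WT from limma on log2(normalized count + 1), the bars are standard errors, and each row is a tested gene, ordered by class, with colors for the call at an adjusted p under 0.05. *Itgax* reached 5.78 and *Lamc3* fell by 3.73, while most other genes lie between -1.02 and 1.62; *Itga3*, *Itga6*, *Itgb5*, *Itgb6*, *Lama3* and *Lama5*, drawn at or below 0, lie above 0 when muscles are scaled to equal totals.

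Among the laminins, the chains of the main muscle trimers rose together, and *Lama5* and *Lamc3* were lower. *Lama2* (chromosome 10, 26980036 to 27619758, minus strand, GRCm38) encodes the alpha chain of mature muscle fibers. It had 996, 1214, 949 and 880.3 normalized counts in the 4 WT muscles and 1552, 1714, 1595 and 1733 in the 4 *mdx5cv* muscles. Every *mdx5cv* muscle thus lay above every WT muscle. The means were 1009.8 ± 144 and 1648 ± 88.9 (SD, n = 4), a log2 fold change of 0.72 (SE 0.11, adjusted p = 0.000255).

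The other alpha chains were not called higher with the deposited size factors. *Lama4* (chromosome 10, 38965515 to 39110188, plus strand), a chain of vessel and nerve basement membranes, had 503, 576, 437 and 495 normalized counts in WT and 536, 535, 532 and 653 in *mdx5cv*. These groups overlapped and the log2 fold change of 0.17 was not called (SE 0.11, adjusted p = 0.263), although it was 0.53 and called higher under equal totals (adjusted p = 0.00944). *Lama5* (chromosome 2, 180176373 to 180225859, minus strand), a widely expressed chain found in vessel walls and at the neuromuscular junction, had 841, 813, 746 and 845 normalized counts in WT and 674, 693, 648 and 665 in *mdx5cv*. It was lower by a log2 fold change of -0.27 (SE 0.09, adjusted p = 0.0277) with no overlap, but stood at 0.08 under equal totals, and the call was lost without WT replicate 1 or 4 or *mdx5cv* replicate 1 or 3. *Lama3*, a chain of epithelial basement membranes, was at 69.1 ± 11.9 and 56.7 ± 7.98 and was not called (log2 fold change -0.28, or 0.08 under equal totals). *Lama1*, the chain of early embryonic basement membranes, had 0 reads in every WT muscle and at most 1 read in any *mdx5cv* muscle, and was not tested.

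*Lamb1* (chromosome 12, 31265234 to 31329644, plus strand) had the largest rise among the laminin chains. Its 4 WT muscles had 291, 308, 283 and 376 normalized counts and its 4 *mdx5cv* muscles 585, 503, 598 and 781. All *mdx5cv* values lay above all WT values, and the means differed 1.96-fold (log2 fold change 0.96, SE 0.14, adjusted p = 0.000170). *Lamb2* (chromosome 9, 108479736 to 108490530, plus strand), the beta chain concentrated at the neuromuscular and myotendinous junctions, had 1577, 1573, 1964 and 1977 normalized counts in WT and 2303, 2336, 2348 and 2129.6 in *mdx5cv*. Its rise was smaller, with a log2 fold change of 0.37 (SE 0.11, adjusted p = 0.0147), and the call was lost without WT replicate 1 and when each muscle was centred on the median of its genes (log2 fold change 0.28, adjusted p = 0.0708). *Lamb3*, an epithelial chain, was at 27.8 ± 2.31 and 33.2 ± 12.1 and was not called.

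*Lamc1* and *Lamc3* moved in opposite directions. *Lamc1* (chromosome 1, 153218922 to 153332786, minus strand), the gamma chain of nearly all laminins, had 1169, 1111, 1106 and 1302 normalized counts in WT and 1418, 1688, 1583 and 1692 in *mdx5cv*. The groups did not overlap, and the log2 fold change was 0.44 (SE 0.10, adjusted p = 0.00339). *Lamc3* (chromosome 2, 31887291 to 31946539, plus strand), a gamma chain of restricted distribution, had 16.0, 35.1, 18.8 and 36.0 normalized counts in WT and 0, 0.943, 0 and 6.39 in *mdx5cv*. These rest on 14 to 34 reads per WT muscle and on 0 to 8 reads per *mdx5cv* muscle, with most of the latter in replicate 4. Mean *Lamc3* was 14.4-fold lower in *mdx5cv* (log2 fold change -3.73, SE 0.62, adjusted p = 0.000433), and the log2 fold change was -4.38 without *mdx5cv* replicate 4, -5.61 with a pseudocount of 0.1 and -1.61 with 10. The plot of laminin values shows these groups muscle by muscle.

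**Figure D2:**
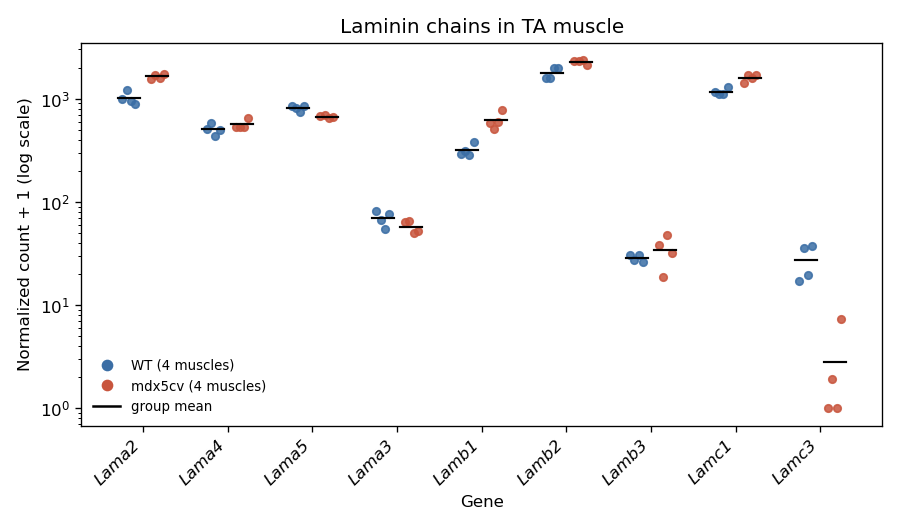
Each point is the normalized count + 1 of a laminin chain in 1 muscle on a log axis, blue for the 4 WT and red for the 4 *mdx5cv* muscles, and each line is the group mean. The groups are apart for *Lama2*, *Lama5*, *Lamb1*, *Lamb2*, *Lamc1* and *Lamc3* and overlap for *Lama3*, *Lama4* and *Lamb3*; the lower position of *Lama5* and *Lama3* in *mdx5cv* is not kept under equal totals.

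Levels were set side by side between chains per kilobase of exon, with all annotated exons of a gene merged. The order of chains depends on these lengths, which were 16.3 kb for *Lama2* and 11.4 kb for *Lama5*. Before division the WT mean of *Lama2* (1009.8) was above that of *Lama5* (811.4). In WT muscle *Lama5* stood at 71.3 ± 4.02 normalized counts per kilobase, *Lama2* at 61.8 ± 8.84, *Lama4* at 41.6 ± 4.73 and *Lama3* at 6.43 ± 1.10 (SD, n = 4). In *mdx5cv* muscle *Lama2* came first at 101 ± 5.44, ahead of *Lama5* at 58.8 ± 1.65 and *Lama4* at 46.7 ± 4.91. As a share of the summed alpha chain level, *Lama2* went from 34.0% ± 2.85 to 47.6% ± 0.898 and *Lama5* from 39.5% ± 2.67 to 27.8% ± 1.18, while *Lama4* took 22.9% ± 0.840 and 22.0% ± 1.56. Among the beta chains *Lamb2* held 89.0% ± 1.19 in WT and 84.8% ± 2.93 in *mdx5cv*, with *Lamb1* at 9.74% ± 1.17 and 14.1% ± 2.83. *Lamc1* held 96.3% ± 1.20 and 99.0% ± 0.388 of the gamma chain level, and *Lamc3* 2.93% ± 1.07 and 0.145% ± 0.243.

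Of the 3 alpha subunits that bind laminin, *Itga7* rose and *Itga6* fell. *Itga7* (chromosome 10, 128933818 to 128958282, plus strand) encodes the laminin receptor subunit of the muscle fiber. It had 939, 1011, 1045 and 1255 normalized counts in WT and 1717, 1384, 1699 and 1889.9 in *mdx5cv*. The groups did not overlap, and the log2 fold change was 0.65 (SE 0.12, adjusted p = 0.000940). *Itgb1* (chromosome 8, 128685654 to 128733200, plus strand), the beta partner of *Itga7* and of most matrix-binding alpha subunits, had 1509, 1147, 1568 and 1418 normalized counts in WT and 2137, 1947, 2053 and 2350.2 in *mdx5cv*. It too lay higher in every *mdx5cv* muscle, with a log2 fold change of 0.60 (SE 0.11, adjusted p = 0.00122). *Itga6*, the laminin receptor subunit of epithelial, endothelial and Schwann cells, was at 482 ± 45.2 and 383 ± 41.0, a log2 fold change of -0.33 (SE 0.11, adjusted p = 0.0331) that became 0.03 under equal totals. The *Itga6* call was also lost without any 1 of WT replicates 1, 2 and 3 and *mdx5cv* replicates 1 and 2. *Itga3*, a subunit mostly of epithelia, was at 84.9 ± 25.6 and 70.5 ± 21.5 and was not called (log2 fold change -0.28, or 0.08 under equal totals).

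The 4 collagen-binding alpha subunits moved in both directions. *Itga1* (chromosome 13, 114953096 to 115101964, minus strand), common on vessel and stromal cells, fell from 727 ± 69.3 to 457 ± 34.4, with a log2 fold change of -0.66 (SE 0.11, adjusted p = 0.000317) and no overlap. *Itga11*, a subunit of fibroblasts, was higher at 71.5 ± 18.5 and 112 ± 26.7, with a log2 fold change of 0.64 (SE 0.21, adjusted p = 0.0277), but its groups overlapped. The *Itga11* call was lost when WT replicate 1, 3 or 4 or *mdx5cv* replicate 2, 3 or 4 was left out. *Itga2* and *Itga10* had group means between 10.05 and 15.1 normalized counts and were not called, and 33.5% of the exon bases of *Itga10* lie in another annotated gene on the same strand.

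*Itga5* (chromosome 15, 103344286 to 103366763, minus strand), the alpha subunit of the main fibronectin receptor, had the largest rise among the subunits outside the leukocyte set. It had 71.1, 89.9, 90.7 and 80.5 normalized counts in WT and 229, 203, 203 and 382 in *mdx5cv*, with replicate 4 the highest. All *mdx5cv* values lay above all WT values, with means 3.06-fold apart and a log2 fold change of 1.56 (SE 0.19, adjusted p = 4.42e-05), or 1.34 without *mdx5cv* replicate 4. *Itgav*, which pairs with several beta subunits to bind vitronectin, fibronectin and latent TGF-beta, rose from 575 ± 24.4 to 907 ± 119.6, with a log2 fold change of 0.65 (SE 0.11, adjusted p = 0.000428). *Itga8*, a receptor subunit for nephronectin, fell from 46.7 ± 4.23 to 31.4 ± 1.87, with a log2 fold change of -0.56 (SE 0.17, adjusted p = 0.0209). This *Itga8* call was lost under equal totals (log2 fold change -0.21) and without WT replicate 3 or 4 or *mdx5cv* replicate 3. *Itga2b*, the platelet fibrinogen receptor subunit, was at 9.11 ± 5.003 and 15.2 ± 1.995 and was not called, although its call appeared without WT replicate 1.

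*Itga4* (chromosome 2, 79255426 to 79333123, plus strand), a subunit that binds VCAM1 and fibronectin and is found on both leukocytes and other cells, went against the leukocyte subunits described further on. It had 573, 525, 525 and 579 normalized counts in WT and 271, 263, 186 and 409 in *mdx5cv*. Every *mdx5cv* muscle was below every WT muscle, and replicate 4 was the nearest to WT. The WT mean was 1.95-fold that of *mdx5cv*, a log2 fold change of -1.02 (SE 0.18, adjusted p = 0.000744), and this went from -0.84 without *mdx5cv* replicate 3 to -1.22 without *mdx5cv* replicate 4. It was called in all alternatives, but at -0.96 with edgeR and with DESeq2 it missed the minimum fold. *Itga9*, of the same alpha subunit subfamily, was higher at 90.0 ± 18.5 and 133 ± 31.0 (log2 fold change 0.56, SE 0.19, adjusted p = 0.0299), with overlap between the groups and no call without WT replicate 1 or 2 or *mdx5cv* replicate 1 or 4, or when each muscle was centred on the median of its genes.

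Of the 6 beta subunits outside the leukocyte set, 1 was called, the *Itgb1* described above. *Itgb5* and *Itgb6*, which pair with *Itgav*, were abundant in both groups, at 944 ± 134 and 832 ± 71.2 for *Itgb5* and at 1063 ± 180.1 and 1051 ± 94.5 for *Itgb6*, and both log2 fold changes (-0.17 and 0.00) were above 0 under equal totals, where *Itgb5* was not called (0.18) and *Itgb6* was called higher (0.35, adjusted p = 0.0288). *Itgb3*, the other main partner of *Itgav* and the partner of *Itga2b*, was at 24.4 ± 9.19 and 33.1 ± 9.32, and *Itgb4*, the partner of *Itga6* in hemidesmosomes, was at 95.0 ± 39.4 and 70.9 ± 18.6. Neither was called. *Itgb8* missed the threshold at 32.7 ± 6.63 and 21.3 ± 1.34 (log2 fold change -0.58, SE 0.22, adjusted p = 0.0515), with every *mdx5cv* value below every WT value. The plot of integrin values sets the abundant subunits beside the leukocyte subunits.

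**Figure D3:**
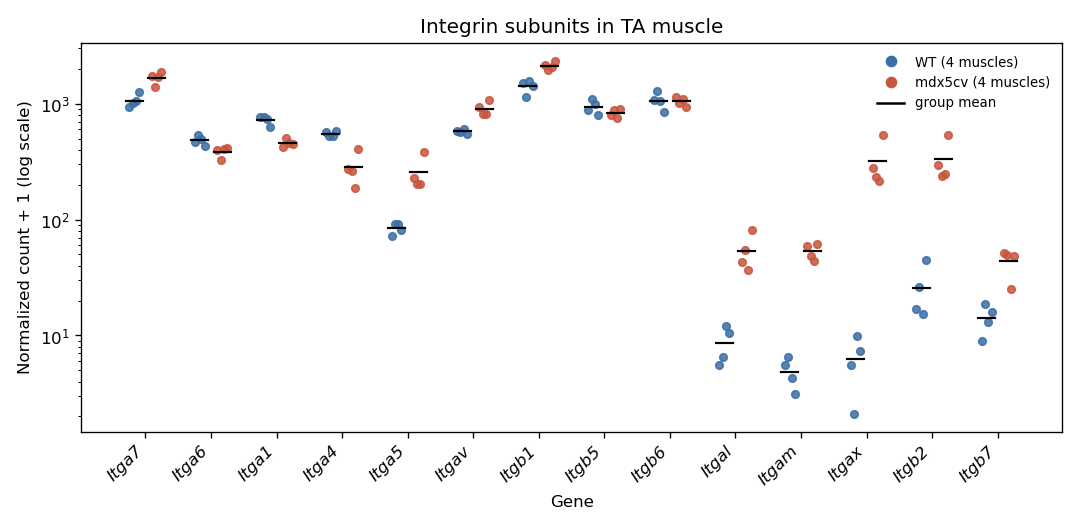
Each point is the normalized count + 1 of an integrin subunit in 1 muscle on a log axis, blue for the 4 WT and red for the 4 *mdx5cv* muscles, and each line is the group mean. The 5 leukocyte subunits at the right sit at 43.4 normalized counts or fewer in WT and rise in every *mdx5cv* muscle, *Itga7*, *Itga5*, *Itgav* and *Itgb1* are also apart and higher, *Itga1* and *Itga4* are apart and lower, *Itga6* is apart and lower but not under equal totals, and *Itgb5* and *Itgb6* overlap.

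The leukocyte set held 5 alpha and 2 beta subunits, of which 3 and 2 passed the filter, and those 5 were all higher in *mdx5cv*. Over all genes tested, 20.9% were higher. The 3 alpha subunits, *Itgal*, *Itgam* and *Itgax*, passed the filter only through *mdx5cv* muscle, so the count is a description. *Itgb2* (chromosome 10, 77530252 to 77565708, plus strand) encodes the beta subunit shared by the integrins of white blood cells. It had 16.0, 25.2, 14.4 and 43.4 normalized counts in WT and 295, 239, 249 and 536 in *mdx5cv*. The groups were far apart, with means of 24.8 ± 13.3 and 329.5 ± 139.9 (SD, n = 4) and a log2 fold change of 3.73 (SE 0.32, adjusted p = 3.93e-06). *Itgax* (chromosome 7, 128129547 to 128150657, plus strand), the CD11c subunit of dendritic cells and of macrophages in injured tissue, had 4.58, 1.10, 8.85 and 6.36 normalized counts in WT and 279.8, 232, 215 and 539 in *mdx5cv*. The WT values rest on 1 to 8 reads per muscle and the *mdx5cv* values on 239 to 675. Mean *Itgax* was 60.6-fold higher, the largest ratio among the 34 genes tested, and the log2 fold change on the log2(normalized count + 1) scale was 5.78 (SE 0.42, adjusted p = 1.02e-06).

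*Itgam* (chromosome 7, 128062640 to 128118491, plus strand), the CD11b subunit of macrophages and neutrophils, had 4.58, 5.48, 3.32 and 2.12 normalized counts in WT and 58.4, 47.2, 43.2 and 60.7 in *mdx5cv*. Its log2 fold change was 3.49 (SE 0.30, adjusted p = 4.01e-06), with no overlap. An annotated gene on the same strand, *Gm49368*, covers 68.7% of the exon bases of *Itgam* and had 0 reads in all 8 muscles, and how the counting treated shared bases is not given in the sources used here, so the level of *Itgam* is uncertain. Per kilobase of exon *Itgam* stood at 10.4 ± 1.69 in *mdx5cv*, and at 33.3 ± 5.40 per kilobase of exon not shared with that gene, a length chosen after the data were seen. *Itgal* (chromosome 7, 127296260 to 127335138, plus strand), the LFA-1 subunit of lymphocytes and other leukocytes, had 4.58, 5.48, 11.1 and 9.53 normalized counts in WT and 41.7, 53.8, 36.0 and 80.7 in *mdx5cv* (log2 fold change 2.65, SE 0.33, adjusted p = 4.97e-05). *Itgb7* (chromosome 15, 102215995 to 102231944, minus strand), which pairs with *Itga4* or *Itgae*, had 8.02, 17.6, 12.2 and 14.8 normalized counts in WT and 50.03, 48.1, 24.3 and 47.9 in *mdx5cv* (log2 fold change 1.62, SE 0.30, adjusted p = 0.000986). Neither gene had overlapping groups. A pseudocount of 10 lowered the log2 fold changes of these low genes, to 4.35 for *Itgax*, 2.16 for *Itgam* and 1.80 for *Itgal*, and all stayed called. *Itgad* had at most 3 reads and *Itgae* at most 12 reads in any muscle, so neither was tested, and part of the *Itgad* sequence is shared with *Itgax*.

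Markers of leukocytes were read in the same muscles. All 6 macrophage markers (*Adgre1*, *Cd68*, *Csf1r*, *Fcgr1*, *Mrc1* and *Lyz2*) were higher, although *Fcgr1* passed the filter only through *mdx5cv* muscle. Their summed level was 477 to 745 normalized counts in WT and 3549.7 to 8601 in *mdx5cv*. This sum was highest in *mdx5cv* replicate 4, in which *Itgax*, *Itgb2*, *Itgal* and, narrowly, *Itgam* were also highest. *Itgb7* was highest in *mdx5cv* replicate 1. Replicate 4 also had the highest lymphocyte, neutrophil, dendritic cell, platelet, fibroblast, Schwann cell, satellite cell and regenerating fiber sums. It had the lowest endothelial and mature fast fiber sums of the *mdx5cv* muscles, and the remaining sums peaked elsewhere. The shared rank is therefore not particular to macrophages. None of the 6 lymphocyte markers passed the filter, and they summed to between 3.32 and 13.2 in WT and between 7.41 and 20.8 in *mdx5cv*. Of the 4 neutrophil markers 1 was tested and was higher (*Csf3r*), with sums of 4.58 to 14.3 and 27.9 to 98.3. Most of the *mdx5cv* sum was *Csf3r* (6.02 ± 2.73 and 52.9 ± 29.3), which passed the filter only through *mdx5cv* muscle. *S100a8*, *S100a9* and *Ly6g* were under the filter, with overlapping groups and at most 7 reads in any muscle. Of the 4 dendritic cell markers 2 were tested and neither was called, with sums of 108 to 146 and 130.2 to 179.8, most of which was *Zbtb46* (114 ± 20.99 and 117 ± 10.4). The other 2 were under the filter and did not overlap between the groups, with 1 to 3 reads of *Flt3* per WT muscle and 5 to 34 per *mdx5cv* muscle, and with 0 reads of *Xcr1* in every WT muscle and 3 to 11 per *mdx5cv* muscle. No marker of these 4 lists was at 0 in all 8 muscles, and the part of each cell type in the rise of the leukocyte subunits was not tested.

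RefSeq promoter windows on GRCm38.p6, from 250 bases before to 50 after a start site, matched 23 of the 37 genes by symbol. They were searched on both strands for GAGGAA, the core that the myeloid factor PU.1 binds, which reads TTCCTC on the opposite strand. These genes had 26 windows, of which 14 held the motif, and 28.3% of all 32851 promoter windows hold it. The windows with the motif belonged to 14 genes. *Itgam*, *Itgax* and *Itgb7* were the matched genes among the leukocyte subunits, and 2 of these 3 had it. Outside that set, the motif was found in genes called higher (such as *Itga5* and *Lama2*), called lower (*Lama5*) and not called (such as *Itga3* and *Itgb6*). The following stretches of 30 bases surround each match in *Itgam* and *Itgb7*, 5′ to 3′ on the strand of the gene with the motif in capitals. These are the matches in the leukocyte set only, and their positions are chr7:128062544-128062573, chr7:128062613-128062642, chr7:128062660-128062689 and chr15:102231916-102231945.
Itgam, 84 before: tgttttctcccgGAGGAAggctacagaggg
Itgam, 15 before: tctcatagctttTTCCTCatacttctctgt
Itgam, 32 after: ggccttggtggcTTCCTCaaagtgtctgtg
Itgb7: agggtgtgtcacTTCCTCctctgctgcctc
The *Itgam* matches start 84 and 15 bases before and 32 bases after the start site, and the *Itgb7* match starts 2 bases after it. The window of *Itgax*, whose rise was the largest, holds no match, and a match describes letters and not binding.

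Per kilobase of exon, the leukocyte subunits went from a trace to a visible part of the integrins. The 5 leukocyte alpha subunits took 0.954% ± 0.367 of the summed alpha subunit level in WT and 14.4% ± 3.52 in *mdx5cv* (SD, n = 4), where single muscles ranged from 11.3% to 19.5%. *Itgax* alone held 0.278% ± 0.171 and 11.0% ± 3.25. The 2 leukocyte beta subunits took 1.65% ± 0.765 of the summed beta subunit level in WT and 11.6% ± 3.34 in *mdx5cv*. *Itga7* remained the most abundant alpha subunit per kilobase in both groups, with 33.6% ± 2.96 and 35.9% ± 3.01, and the share of *Itga6* went from 13.7% ± 1.501 to 7.41% ± 0.859, of *Itga1* from 10.1% ± 1.296 to 4.34% ± 0.871 and of *Itga4* from 10.1% ± 0.694 to 3.44% ± 0.697. *Itgb1* held 43.6% ± 5.68 of the beta subunit level in WT and 49.9% ± 1.23 in *mdx5cv*, ahead of *Itgb5* at 33.4% ± 3.74 and 22.5% ± 1.98 and *Itgb6* at 18.8% ± 2.74 and 14.3% ± 2.11. The plot of shares gives the make-up of each muscle, which does not depend on how muscles are scaled but does depend on the exon lengths.

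**Figure D4:**
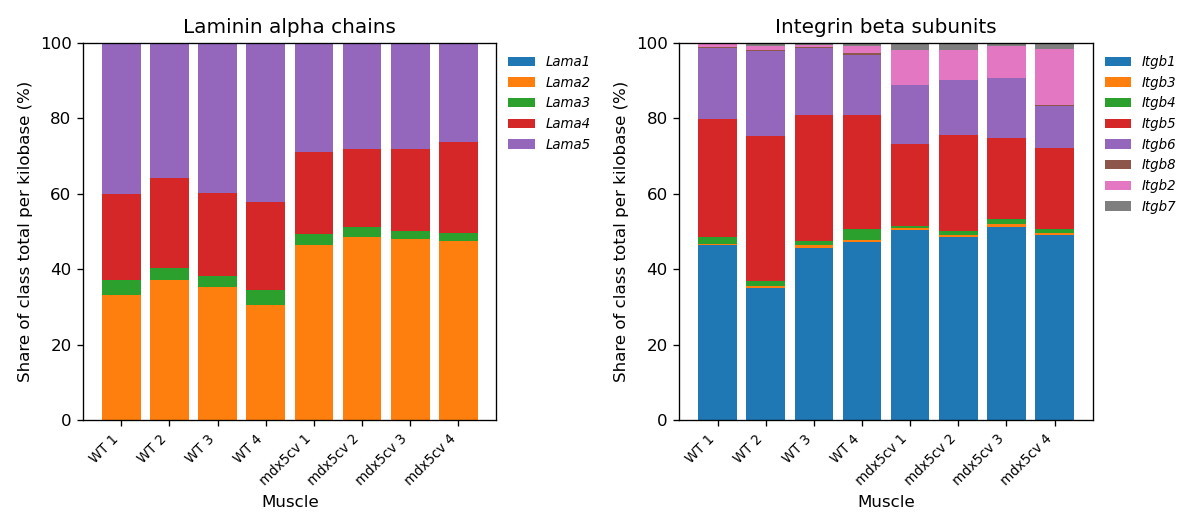
Each bar is 1 muscle and stacks the share, in percent, of each laminin alpha chain (left) or integrin beta subunit (right) in the summed normalized count per kilobase of exon of its class. *Lama2* is 30.6% to 37.2% of the alpha chains in WT and 46.4% to 48.5% in *mdx5cv*, and *Itgb2* is 0.560% to 1.93% of the beta subunits in WT and 7.96% to 15.0% in *mdx5cv*.

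Ratios of paired genes within a muscle were compared between the groups, since the scaling of the muscle largely cancels in them. The 1 added to each count leaves some dependence on the scaling where a gene is low, as for *Itgam*. With 4 against 4 muscles the smallest two-sided p of the exact permutation test is 0.0286. This becomes 0.0381 after Benjamini-Hochberg adjustment over the 8 ratios, and 6 ratios reached it, with no overlap of the groups. The ratios pair members already compared above in the same muscles, so they are no separate support for those changes. The log2 ratio of *Lama5* to *Lama2* went from -0.306 ± 0.217 in WT to -1.296 ± 0.073 in *mdx5cv* (SD, n = 4, exact permutation p = 0.0286), and that of *Lama4* to *Lama2* from -1.002 ± 0.127 to -1.55 ± 0.113 (exact permutation p = 0.0286). In both cases *Lama2* gained on another alpha chain. *Lamb1* gained on *Lamb2* by 0.59 on the log2 scale, *Itga5* gained on *Itga7* by 0.90, and *Itgb2* gained on *Itgb1* by 3.14. The log2 ratio of *Itga6* to *Itga7* went from -1.13 ± 0.28 to -2.12 ± 0.06, with the 4 *mdx5cv* muscles between -2.20 and -2.07.

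*Itga7* and its partner *Itgb1* were in nearly the same ratio in both groups, with log2 ratios of -0.41 ± 0.27 in WT and -0.35 ± 0.10 in *mdx5cv*, and the difference of 0.06 was not significant (exact permutation p = 0.743, n = 4 per group). The values ranged from -0.68 to -0.18 in WT and from -0.49 to -0.27 in *mdx5cv*. The log2 ratio of *Itgam* to *Itgb2* was -2.32 ± 1.02 in WT and -2.56 ± 0.38 in *mdx5cv*, with overlapping groups (exact permutation p = 0.714), and the difference was 0.00 with a pseudocount of 0.1. Its WT values rest on 2 to 5 reads of *Itgam* per muscle. The plot of ratios shows all 8 pairs.

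**Figure D5:**
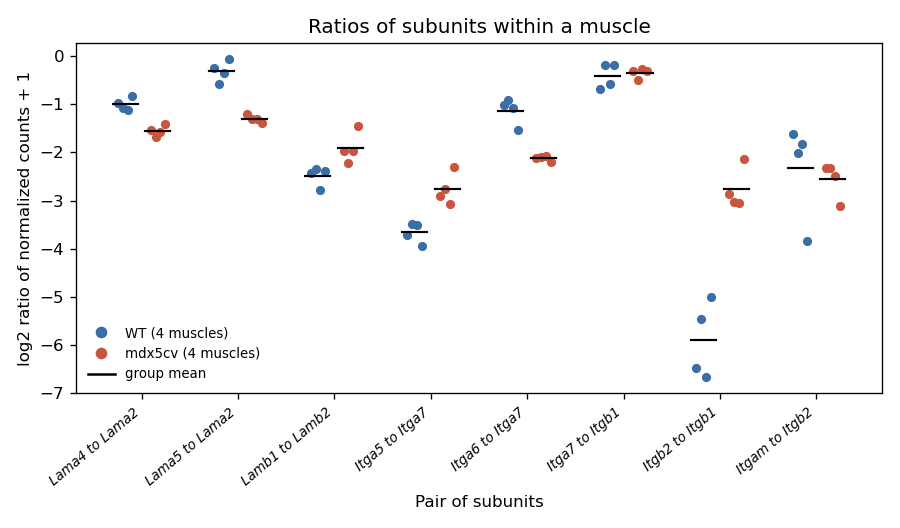
Each point is the log2 ratio of the normalized counts + 1 of a pair of subunits within 1 muscle, blue for the 4 WT and red for the 4 *mdx5cv* muscles, and each line is the group mean. The groups are apart for 6 pairs and overlap for *Itga7* to *Itgb1* and for *Itgam* to *Itgb2*.

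The proteins that laminins and integrins bind were taken from 4 lists. Among 12 other basement membrane genes, 9 were higher and 2 lower, with a median log2 fold change of 0.78. Over all genes tested, 20.9% were higher and 20.1% lower, with a median of 0.00, the background for the lists that follow too. *Col4a6* here, and *Lpxn* and *Parvg* in the adhesion complex list, passed the filter only through *mdx5cv* muscle. The largest rises were those of *Col4a5* (26.6 ± 8.83 to 163 ± 29.4 normalized counts, log2 fold change 2.62), *Col4a6* (6.01 ± 3.01 to 21.8 ± 3.44, 1.81) and *Col18a1* (116 ± 33.2 to 310.4 ± 113, 1.39), and the genes that fell were *Col4a3* (log2 fold change -1.34) and *Col4a4* (-1.07, not called under equal totals). *Col4a3* to *Col4a6* encode the less common chains of the type IV collagen network to which laminins are linked, and *Col18a1* encodes the source of endostatin. Of 16 other integrin ligands 11 were tested, and 8 were higher and 3 lower, with a median log2 fold change of 2.04. Osteopontin (*Spp1*), a ligand of *Itgav* and *Itga9* integrins, rose by a log2 fold change of 4.67, followed by periostin (*Postn*, 4.07) and tenascin C (*Tnc*, 3.04), matrix proteins of healing tissue. The 3 that fell were *Icam2* (-0.97), a ligand of *Itgal* integrin on endothelium, von Willebrand factor (*Vwf*, -0.86) and vitronectin (*Vtn*, -0.57, not called under equal totals).

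Inside the cell, 29 of 30 genes of the integrin adhesion complex were tested, and 17 were higher and 3 lower, with a median log2 fold change of 0.53. The largest rises were those of *Lpxn* (log2 fold change 3.40), a paxillin relative of blood cells, *Fermt3* (2.93), the kindlin of blood cells that activates *Itgb2* integrins, and the kinase gene *Ptk2b* (2.83). The 3 that fell were *Lims2* (-0.99), a partner of integrin-linked kinase, *Itgb1bp1* (-0.61, not called under equal totals), which restrains *Itgb1* integrins, and *Fermt2* (-0.33, but 0.02 under equal totals), the kindlin of muscle and most other tissues. *Fermt1*, the epithelial kindlin, had 0 reads. The 3 laminin receptors outside the integrins, *Dag1* for dystroglycan, *Bcam* and *Rpsa*, were not called, with log2 fold changes of 0.22, -0.16 and -0.20. Under equal totals these were 0.58, 0.20 and 0.16, and *Dag1* was called higher.

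Markers of other cells of the muscle were read in the same libraries. The summed level of 5 fibroblast markers, of which 4 were higher, was 5195.9 to 7870.2 normalized counts in WT and 17446 to 31390.2 in *mdx5cv*. Most of this difference was in the collagen genes *Col1a1* (780.2 ± 161 and 6996 ± 2217) and *Col3a1* (1485 ± 402 and 12659 ± 3557), while *Pdgfra* was 1.54-fold higher and *Dcn* was not called (3090.2 ± 1200.04 and 2488 ± 358). All 4 endothelial markers were lower, with sums of 2394 to 2882 and 1438 to 1878, and of the 4 smooth muscle and pericyte markers 2 were lower and 1 was higher, with sums of 5749 to 7046 and 3831 to 4511. The 5 markers of regenerating fibers were all higher and summed to 118 to 143 and 2151 to 8413. Among them *Mymk* and *Chrng*, each with a WT mean of 0.265, passed the filter only through *mdx5cv* muscle. Of the 4 Schwann cell markers 2 were lower and 1 was higher, of the 3 satellite cell markers 2 were tested and 1 was higher, and of the 5 markers of mature fast fibers 2 were lower. The 4 epithelial markers, relevant to *Lama3*, *Lamb3* and *Itgb4*, summed to at most 9.53 in any muscle and none was tested. Of the 4 platelet markers, relevant to *Itga2b*, 1 was tested and was higher (*Pf4*, 15.7 ± 5.64 and 67.1 ± 42.6). *Ppbp*, *Gp9* and *Gp1ba* were under the filter, with overlapping groups and at most 8 reads in any muscle. The part of these cells in the changes of *Itga1*, *Itga6*, *Lama5*, *Lama2* and the other subunits was not tested.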

How the data were processed

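RNA-seq of 8 TA muscles was analysed, 4 *mdx5cv* and 4 WT, grouped by their labels. Each value deposited by the authors is a signal per gene, the read counts of a muscle over its size factor, and all 55401 genes are kept. Per the submitters' processing notes, which give no roles or order, the tools were FastQC, Trim Galore 0.6.4, STAR 2.6.0c, SAMtools 1.9, featureCounts, MultiQC 1.6, DESeq2 1.26.0 and R 3.6.2, with genome build mm10, and the setting for strand and for shared exons is not given in the sources used here. Reads of overlapping, antisense or near-identical genes are therefore uncertain. Dividing out the size factors (0.873 to 0.944 in WT, 1.06 to 1.25 in *mdx5cv*) gave whole reads for 100% of the values, within 0.0001. No row lacked a gene. Between replicates of a group, the chi-square of the reads over its degrees of freedom ranged from 9.55 to 43.2, and all 8 libraries were kept as separate samples.

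The comparison was fitted on log2(normalized count + 1) by limma 3.58.1 under R 4.3.3, with a variance trend, two-sided, and with Benjamini-Hochberg adjustment over all 13677 genes with a mean of at least 10. This scale understates the change of low genes. The minimum fold, a log2 fold change of 1, is the one in the methods of the study. Ratios within a muscle were compared with the exact permutation test. Levels per kilobase used the merged bases of all exons annotated for a gene in GENCODE M21 on GRCm38. That annotation held 55141 of the gene IDs and all 37 subunits. The recovered reads, with the deposited size factors, also went into the quasi-likelihood test of edgeR 4.0.16 and into DESeq2 1.42.0. Other alternatives changed the pseudocount (0.1 or 10), the filter, the scaling (TMM, equal totals, the median of all genes at 0), the variance trend, a block for the replicate number, and the replicates (each left out once). The scripts were tested on simulated data. All else ran in Python 3.11.15 (matplotlib 3.10.9, numpy 2.4.6, scipy 1.17.1, pandas 2.3.3).

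The members, gene lists and marker lists were chosen with earlier results of these data known. Every subunit is named except 1 that is counted but not reported here. Values per muscle are given for subunits called past that minimum fold and for *Lama2*, *Lama4*, *Lama5*, *Lamb1*, *Lamb2*, *Lamc1*, *Itga7* and *Itgb1*, and of each partner list the 3 largest called changes in each direction are named. *Dmd* and markers are named beside the results they touch. Protein sequences were not used here.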

Additional observations from a re-analysis of the deposited data

Results flagged for a closer look

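In 3 of 84 sets of 4 muscles (68 of single subunits and 16 of ratios), 1 muscle lay farther from the other 3 than the 95% critical value of Dixon's test allows. Chance alone flags about 1 set in 20, or 4.2 sets. *Itga6* was at 322.6 normalized counts in *mdx5cv* replicate 2, below the 394.7 to 410.7 of the other *mdx5cv* muscles. *Itgb7* was at 24.3 in *mdx5cv* replicate 3, below the 47.9 to 50.03 of the others. *Lama4* was at 652.9 in *mdx5cv* replicate 4, above the 532.2 to 536.4 of the others.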

How the results depend on the processing

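Of the 21 subunits called, 15 kept their direction and call in each alternative in which they were tested. These were 19 alternatives, but 18 for *Itgal*, *Itgam*, *Itgax*, *Itgb7* and *Lamc3*, which the filter of 10 normalized counts in each muscle removed. *Itga6*, *Itga8*, *Itga9*, *Itga11*, *Lama5* and *Lamb2* lost the call in some. Of the 13 not called, 4 gained a call in some, namely *Itgb8* in 7, *Itga2b* in 2, and *Lama4* and *Itgb6*, both under equal totals. Equal totals gave 5444 genes higher and 820 lower in place of 2854 and 2743, 3 subunits lower, 11 subunits higher with the minimum fold, and 1 gene lower in each of the basement membrane and adhesion complex lists. The direction then turned for *Itga3* (0.077), *Itga6* (0.026), *Itgb5* (0.18), *Itgb6* (0.35), *Lama3* (0.077) and *Lama5* (0.083), each on the log2 scale. Centring each muscle on the median of its genes ended the calls of *Lamb2* and *Itga9*. Requiring 10 normalized counts in each muscle left 2 subunits higher with the minimum fold, since it removes those low in WT. The subunits lower with the minimum fold were 1 under that filter, a pseudocount of 10, equal totals, edgeR and DESeq2, and 1 to 2 with a replicate left out (1 when WT replicate 1 or 4 or *mdx5cv* replicate 3 was). That filter removed *Lamc3*, and in the other cases *Itga4* stayed called but missed the minimum fold. With a replicate left out, the log2 fold change of *Itgb6* ranged from -0.11 to 0.091 and that of *Lamb3* from -0.014 to 0.43. The difference between the groups in log2 ratio Itgam to Itgb2 was 0.00304 with a pseudocount of 0.1. Without *mdx5cv* replicate 4, 13 subunits were higher and 6 lower. edgeR gave 15 and 7, and DESeq2 15 and 6. With the replicate number as a block, 15 subunits were higher and 5 lower (2880 and 2736 genes), and the *Itga6* call was lost. Muscles with the same number share nothing else by their labels. Their deviations correlated at 0.0501, 0.0309, 0.0722 and 0.146, and not every muscle correlated best with its own number. The causes of these shifts were not tested. Subunits under about 10 reads per muscle are limited by depth.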
